A study of Homo sapiens with 8 samples.

Results

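The genes described here are 31 human genes whose products modify, fold, export, trim and crosslink collagen. They were chosen by name as a pathway, not by a measured value, and all 31 were matched by Ensembl identifier among the 63241 gene rows of the count table. The study sequenced RNA from 8 libraries labelled as HSC3, an established line of human oral squamous cell carcinoma. Per the labels, 4 libraries (knockdown 1 to 4) were transfected with si-Col1a1, a small interfering RNA against collagen type I alpha 1, and 4 (control 1 to 4) with the control siRNA si-NC. Both groups received 100 pmol of siRNA with a lipid transfection reagent and were collected after 48 hours. Whether the 4 libraries of a label are separate cultures is not stated, and the p-values therefore speak only of the spread among these 8, part of which may be technical.

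Collagen chains are made in the endoplasmic reticulum, where prolyl 4-hydroxylase, prolyl 3-hydroxylase and lysyl hydroxylase act on them before the triple helix closes. Galactose is added to some hydroxylysines, the chaperone HSP47 (SERPINH1) holds the folded helix, and TANGO1 (MIA3) helps to load procollagen into carriers that leave the reticulum. Outside the cell ADAMTS and BMP1-type proteases cut off the propeptides, and lysyl oxidases crosslink the fibrils. Fibroblasts are the main makers of fibrillar collagen in most tissues.

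Short upstream sequences are shown for P4HA1, whose levels stood apart between the labels, for PLOD2 and LOX, which carry the same 5-base motif, and for P4HB, the member with the highest level per kilobase. They come from RefSeq (GRCh38.p14, the minus strand for all 4 genes), and each reads 5′ to 3′. In the P4HA1, PLOD2 and LOX lines the capitals mark the motif ACGTG, the core of the hypoxia response element, on either strand (CACGT when reversed). In the P4HB lines they mark CCAAT on the printed strand. A CCAAT site within the LOX lines is left in lower case.
P4HA1, chr10:73096935-73096964: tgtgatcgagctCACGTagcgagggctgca
PLOD2, chr3:146161367-146161396: cgtgagcctccaCACGTagccgcaggcagc
PLOD2, chr3:146161313-146161342: caaacagtccagACGTGgggcccaggaggg
LOX, chr5:122078427-122078456: gctccctgtgcaACGTGtctggggggagga
LOX, chr5:122078358-122078387: ctgtccgccttgCACGTttccaatcgcatt
LOX, chr5:122078340-122078369: tccaatcgcattACGTGaacaaatagctga
LOX, chr5:122078284-122078313: gtaactttgcaaACGTGccagaaagtttaa
P4HB, chr17:81860744-81860773: cgaggtcctcggCCAATcccgaacgaaggc
P4HB, chr17:81860673-81860702: tggtgtgagtgtCCAATccgagagcggcaa
P4HB, chr17:81860632-81860661: gaagtccgccggCCAATcgaaggcgggccc
In the GENCODE 29 models, which start some of these genes earlier than RefSeq does, the P4HA1 site lies inside an exon and both PLOD2 sites inside an intron. The LOX sites run from upstream of the gene into its first bases, as do the P4HB sites. RefSeq promoters were found for 24 of the 31 genes. On either strand of the 250 bases before the most upstream listed start, ACGTG was found in 6 of these 24 genes (P4HA1, PLOD2, LOX, PPIB, MIA3 and ADAMTS3) and CCAAT in 7. Over all listed starts ACGTG was found in 10 of 29 for these genes and in 18.5% of the 35116 promoters of the table, and CCAAT in 8 of 29 and 32.0%. GCGTG was found in 11 of the 24 genes, and over all listed starts in 16 of 29 and 32.2%. A match describes the letters only.

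Total counts ran from 30684584 to 61795990 per library, and levels are given as CPM (counts scaled to the same library total) of each column's total. The libraries differed from each other in genes of other tissues. A list of skeletal muscle markers (13 of 14 matched) took 0.0038% to 4.66% of counts in the knockdown libraries and 0.0029% to 14.7% in the controls. Salivary gland markers, of which 10 of 14 were at 0 in at least 1 library, took 11.2% in knockdown 2 and 7.55% in control 1 and under 0.001% in the other 6. Squamous epithelial markers, which define the labelled cell type, took only 0.124% in knockdown 2 and 0.054% in control 1, against 2.04% to 16.5% elsewhere. The siRNA target COL1A1 was read at 368, 123, 301 and 155 CPM in knockdown 1 to 4 and at 88.9, 8183, 476 and 689 CPM in control 1 to 4. Control 1 lay below every library labelled knockdown, so the target does not separate the labels, and the groups are called by their labels throughout. The fitted difference of COL1A1 was -2.97 ± 1.30 (log2, SE) with all libraries and -0.48 without control 2.

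The labels were compared to ask whether the enzymes that act on collagen differ between them. Since COL1A1 did not separate the labels, a difference could not be read as an effect of lowering COL1A1. The labels name HSC3 only and do not account for the muscle and gland RNA. None of the 31 genes passed the test (edgeR quasi-likelihood test over 21192 genes, Benjamini-Hochberg adjusted p from 0.981 to 1.000). The background is 0%, since no gene of any kind passed in this fit. At an unadjusted edgeR p under 0.05 stood 2 of the 31 (6.45%), P4HA1 and LOXL3, against 1013 of all genes tested (4.78%). Both were lower in knockdown, as were 1.88% of all genes tested at that p. The fitted values lay below 0 in 26 of 31 (83.9%) and above 0 in 5 (P4HB, P3H3, FKBP10, MIA3 and LOX), where 53.2% of all tested genes lay below 0. The median log2 fold change of the 31 was -0.81 and that of all tested genes -0.05. Without control 2 the same median was -0.48, with 21 of 31 below 0.

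Summed fibroblast and adipocyte markers did not overlap between the labels, those of the other listed cell types did, and edgeR called no single marker. The 12 fibroblast markers, all detected in every library, took 0.046% to 0.1255% of counts in the knockdown libraries and 0.1261% to 1.43% in the controls, with the lowest control just above the highest knockdown library. All 12 were fitted below 0 (median log2 fold change -1.78). Single markers overlapped between the labels: DCN was at 39.5 CPM in control 4, below the 204 and 209 CPM of knockdown 2 and 4. COL1A2 and COL3A1 are among these markers and are also collagen substrates. The 6 adipocyte markers took 0.0012% to 0.0123% in the knockdown libraries and 0.0129% to 0.0443% in the controls, again without overlap. In control 2 and 4 this rests on FABP4 alone, which held 124 of the list's 129 CPM and 241 of its 245 CPM. PLIN4 was at 4.29 and 2.38 CPM in control 2 and 4, against 56.6 and 83.4 CPM in knockdown 2 and 4. It was at 317 and 256 CPM in control 1 and 3. The fit put 6 of 6 below 0 (median -1.99). ADIPOQ was at 0 in knockdown 1 and 3 and control 2 and 4, and CIDEC at 0 in control 2. Of the lists whose ranges overlapped, skeletal muscle had 13 of 13 tested markers fitted below 0 (median -1.82) and squamous epithelium 11 of 11 above 0 (median 1.55). The others held both signs. Endothelial markers had 4 below 0 and 2 above (median -0.23), and leukocyte markers 6 and 1 (median -0.62). Smooth muscle had 3 and 2 (median -0.005), and salivary gland 1 and 4 (median 2.94). The part of these cell types in the enzymes' values was not tested, and in bulk RNA fewer cells of a type and less RNA per cell cannot be told apart.

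**Figure D1:**
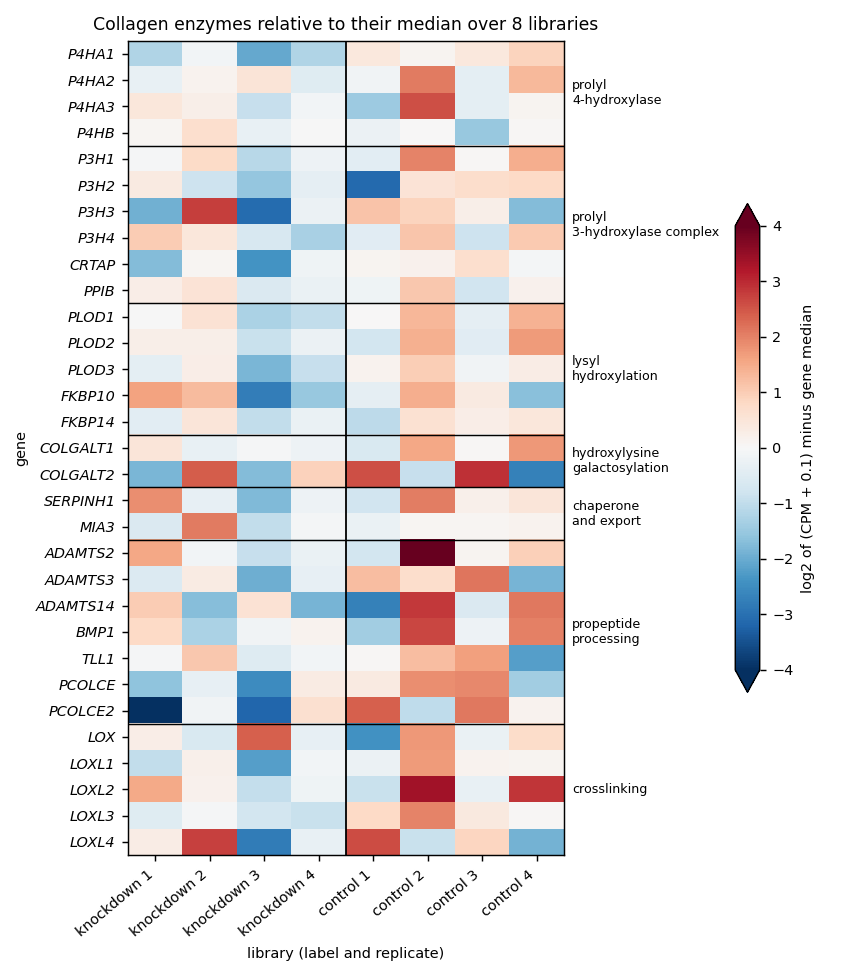
Level of the 31 genes (rows, by step) in the 8 libraries (columns) as log2 of CPM plus 0.1, minus the gene's own median over the 8 libraries; red is above and blue below that median. Control 2 holds the highest level of 14 genes and knockdown 3 the lowest of 16. P3H3 and LOXL4 are highest in knockdown 2, COLGALT2 in control 3 and PCOLCE2 in control 1.

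The spread between the 8 libraries was wide. The ratio of the highest to the lowest of the 8 libraries ran from 3.17 for FKBP14 to at least 301 for PCOLCE2, with a median of 15.6. It was at least 10-fold for 17 of the 31 genes, where 36.7% of all tested genes were as wide. Control 2 had the highest level for 14 of 31 (45.2%), where 15.1% of all tested genes were highest in that library. With TMM-scaled library sizes it was highest for 13, against 10.8%. Knockdown 3 had the lowest level for 16 of 31, against 26.7% of all tested genes, and for 11 with TMM scaling, against 16.9%.

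The first step, prolyl 4-hydroxylation, gives the triple helix its heat stability. P4HA1 encodes the main catalytic alpha subunit (chromosome 10, 73007217 to 73096974, minus strand, 16 merged exons). Its level was 13.7, 29.3, 7.60 and 13.8 CPM in knockdown 1 to 4 and 42.1, 34.4, 42.1 and 59.3 CPM in control 1 to 4. Every knockdown library lay below every control, the closest being knockdown 2 and control 2. P4HA1 was 1 of 2 members whose groups did not overlap, a pattern that 2.35% of all tested genes had in either direction and 1.47% with knockdown lower (1.25% with TMM-scaled library sizes, with which both members also did not overlap). The means were 16.1 ± 9.25 and 44.5 ± 10.6 CPM (SD, n = 4 each). The P4HA1 log2 fold change came to -1.38 ± 0.373 (SE), at an unadjusted edgeR p of 0.00512 and an adjusted edgeR p of 0.981. It stayed between -1.70 and -1.21 when any 1 library was left out. Without the 4 libraries that held over 1% of counts in muscle or gland markers it was -1.71. That fit sets only knockdown 1 and 3 against control 2 and 4. Since the P4HA1 groups did not overlap, leaving libraries out bears on the size of this value and not on its sign.

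The other catalytic subunits had other patterns. P4HA2 was lowest in knockdown 4 (30.2 CPM) and highest in control 2 (177 CPM) and control 4 (105 CPM), while control 1 and control 3, at 37.9 and 32.6 CPM, lay within the knockdown range. P4HA3, the scarcest alpha subunit here, was at 1.10, 0.913, 0.357 and 0.713 CPM in knockdown 1 to 4 and at 0.217, 5.05, 0.558 and 0.827 CPM in control 1 to 4. Its groups overlapped, and its fitted value of -0.90 was 0.71 without control 2. P4HB encodes protein disulfide isomerase, the beta subunit that keeps the alpha subunits soluble and also acts outside collagen synthesis. It stood at 731, 1105, 567 and 679 CPM in knockdown 1 to 4 and at 584, 701, 242 and 709 CPM in control 1 to 4. P4HB was the one gene of the pathway fitted higher in every fit made, at 0.58 ± 0.499 (log2, SE) with an adjusted edgeR p of 0.981, and its groups overlapped. Per kilobase of exon its median level, 130 CPM, was far above that of the next gene, PPIB, at 19.7 CPM, and P4HA1 stood at 10.3 CPM.

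**Figure D2:**
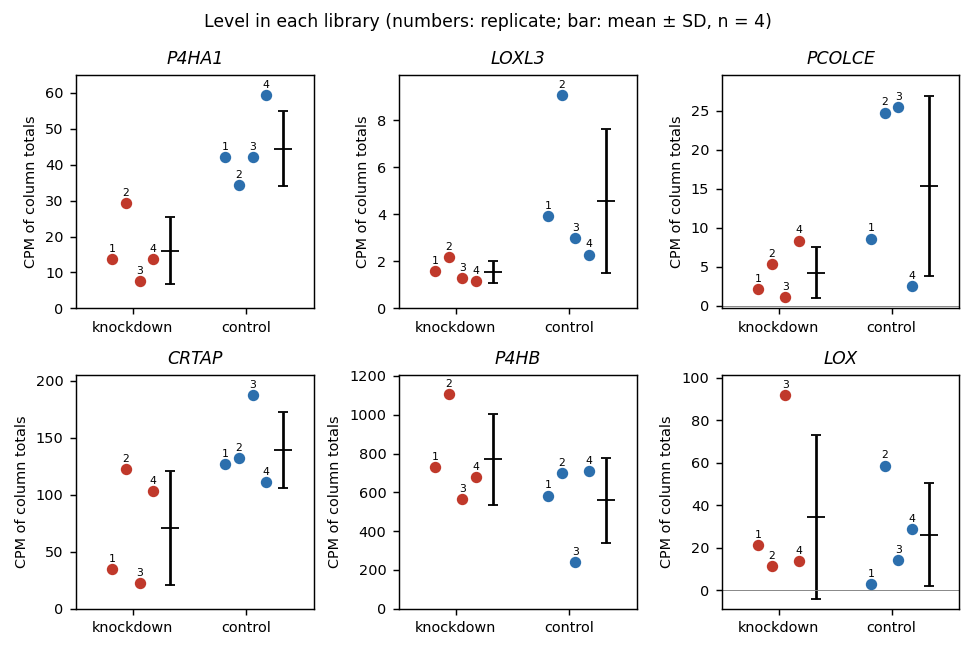
CPM of 6 genes in each library, with knockdown in red and control in blue, the replicate number above each point and the mean ± SD (n = 4) as a bar beside each group. P4HA1 and LOXL3 show no overlap between the labels, PCOLCE overlaps through control 4, CRTAP through knockdown 2, and LOX has 1 high library on the knockdown side.

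Prolyl 3-hydroxylation is carried out by a complex of P3H1, CRTAP and cyclophilin B (PPIB), with P3H2 and P3H3 as related enzymes and P3H4 (SC65) as a partner of lysyl hydroxylase 1. CRTAP, the non-catalytic subunit, stood at 34.8, 123, 22.2 and 103 CPM in knockdown 1 to 4 and at 127, 132, 187 and 111 CPM in control 1 to 4. Only knockdown 2 overlapped the controls, lying above control 4. The CRTAP log2 fold change was -0.92 ± 0.459 (SE), with an unadjusted edgeR p of 0.0766. PPIB had the narrowest range of the complex, 3.59-fold, with 44.8, 55.2, 24.9 and 31.1 CPM in knockdown 1 to 4 and 33.2, 78.4, 21.8 and 42.2 CPM in control 1 to 4. Its groups overlapped throughout and its fitted value was -0.02 ± 0.424. Of its exon bases 27.2% are shared with SNX22 on the opposite strand, and with no strand setting stated the reads of the pair cannot be told apart.

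P3H1, the catalytic subunit, ran from 4.61 to 17.2 CPM in the knockdown libraries and from 7.45 to 40.3 CPM in the controls. It and CRTAP, whose proteins are known to stabilise each other, were not highest in the same library: P3H1 peaked in control 2 and CRTAP in control 3. P3H3 had the widest range of the step, with 1.54, 42.5, 0.631 and 5.18 CPM in knockdown 1 to 4 and 13.6, 11.4, 7.23 and 1.75 CPM in control 1 to 4. Its fitted value was 0.43 with all libraries, -1.74 without knockdown 2 and, with all 8 kept, -0.55 by limma-voom. P3H2 was 5.05 to 19.3 CPM in knockdown and 22.0 to 25.9 CPM in control 2, 3 and 4, but 1.66 CPM in control 1, the lowest of all 8. P3H4 ran from 4.44 to 22.2 CPM in knockdown and from 6.14 to 23.7 CPM in control, a full overlap with a fitted value of -0.09.

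Lysyl hydroxylases prepare the residues that are later glycosylated or crosslinked. PLOD1, which acts mainly on the helix, ran from 21.2 to 75.6 CPM in knockdown and from 39.4 to 134 CPM in control. PLOD2, the telopeptide hydroxylase, ran from 11.3 to 24.9 CPM in knockdown, with control 1 and 3 inside that range at 12.7 and 15.3 CPM and control 2 and 4 above it at 56.7 and 69.1 CPM. PLOD3, which also carries glycosyltransferase activity, ran from 7.08 to 30.1 CPM in knockdown and from 22.7 to 49.7 CPM in control. The fitted log2 fold changes of the 3 lay close together, at -0.89 ± 0.519, -0.78 ± 0.560 and -0.81 ± 0.425 (SE), and none passed the test. Per kilobase of exon PLOD1 held 50.5% to 63.4% of the family and was the most abundant of the 3 in all 8 libraries, while PLOD2 ran from 10.3% to 24.7%.

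FKBP10 (FKBP65) is an immunophilin that is needed for telopeptide lysine hydroxylation, and FKBP14 (FKBP22) is a related one. FKBP10 was at 71.9, 56.4, 3.40 and 8.11 CPM in knockdown 1 to 4 and at 18.2, 64.4, 30.4 and 7.38 CPM in control 1 to 4. Both labels held low and high libraries of FKBP10, and its fitted value of 0.40 ± 0.942 was -0.44 without knockdown 1. FKBP10 and P3H4 lie head to head on chromosome 17, FKBP10 from 41812680 to 41823217 on the plus strand and P3H4 from 41801947 to 41812604 on the minus strand. FKBP14 varied least of all 31 genes, with 7.72, 14.6, 5.18 and 8.69 CPM in knockdown 1 to 4 and 5.00, 15.8, 12.4 and 14.2 CPM in control 1 to 4. The highest knockdown library of FKBP14 lay above 3 of the 4 controls.

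The next step is galactosylation of hydroxylysine. COLGALT1, the broadly expressed transferase, was at 75.7, 44.1, 52.4 and 46.8 CPM in knockdown 1 to 4 and at 35.3, 158, 56.2 and 179 CPM in control 1 to 4, so that control 2 and control 4 stood above all others. COLGALT2 had a different order, with 0.299, 7.46, 0.329 and 2.58 CPM in knockdown 1 to 4 and 8.37, 0.647, 10.6 and 0.115 CPM in control 1 to 4. Its 4 highest libraries, control 3, control 1, knockdown 2 and knockdown 4, are the 4 in which skeletal muscle markers took over 1% of counts (3.85% to 14.7%), and it stood at 0.647 CPM or less in the other 4. With the muscle share as a covariate the fitted value of COLGALT2 went from -0.96 to 0.76, and the part of muscle RNA in its level was not tested beyond this.

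Among chaperone and export genes SERPINH1 (HSP47), a chaperone dedicated to collagen, was at 124, 26.9, 9.85 and 29.6 CPM in knockdown 1 to 4 and at 19.8, 141, 38.6 and 47.0 CPM in control 1 to 4. Knockdown 1 and control 2 were high and the groups overlapped, with a fitted value of -0.11 ± 0.828 that turned to 0.68 without control 2. MIA3 (TANGO1) was at 34.2, 214, 25.3 and 47.9 CPM in knockdown 1 to 4 and at 42.5, 53.6, 54.0 and 56.0 CPM in control 1 to 4. The 4 controls of MIA3 were close together while knockdown 2 stood alone, and the fitted value of 0.67 was -0.29 without it. Knockdown 2 is also the library with the largest share of salivary gland markers, 11.2%, and control 1, at 7.55%, had 42.5 CPM of MIA3. The part of gland RNA in the MIA3 level was not tested.

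In propeptide processing 7 of 7 genes were fitted below 0 (median log2 fold change -1.58), as were both galactosylation genes. None of the 7 passed the test, and their highest libraries lay 16.0-fold (TLL1) to at least 301-fold (PCOLCE2) above their lowest. ADAMTS2, the main N-propeptidase of fibrillar procollagens, was at 25.7, 8.11, 4.58 and 7.32 CPM in knockdown 1 to 4 and at 5.25, 145, 9.49 and 17.2 CPM in control 1 to 4. Control 2 lay 17.9 times above the median of the other 7 libraries, and the log2 fold change of ADAMTS2, -1.67 ± 1.06 (SE), was 0.34 without it. ADAMTS14, a further N-propeptidase, was at 4.82, 0.652, 3.54 and 0.576 CPM in knockdown 1 to 4 and at 0.272, 17.3, 1.52 and 10.3 CPM in control 1 to 4, high again in control 2 and 4. ADAMTS3, which also processes VEGF-C, had the lowest median level per kilobase of all 31 genes and ran from 0.137 to 1.04 CPM in knockdown and from 0.154 to 3.91 CPM in control.

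BMP1 removes the C-propeptide and TLL1 is its relative. BMP1 was at 32.7, 7.76, 17.0 and 21.0 CPM in knockdown 1 to 4 and at 7.20, 119.9, 16.3 and 76.1 CPM in control 1 to 4, again with control 2 and 4 high and control 1 lowest. TLL1 was at 4.12, 9.13, 2.93 and 3.92 CPM in knockdown 1 to 4 and at 4.40, 10.1, 13.5 and 0.846 CPM in control 1 to 4. The lowest and the highest library of TLL1 were both controls.

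PCOLCE and PCOLCE2 encode enhancers of C-propeptide cleavage. PCOLCE was at 2.14, 5.34, 1.10 and 8.36 CPM in knockdown 1 to 4 and at 8.62, 24.8, 25.5 and 2.50 CPM in control 1 to 4. Its groups overlapped through control 4 alone. The PCOLCE log2 fold change was -1.75 ± 0.772 (SE), with an unadjusted edgeR p of 0.0502 and an adjusted edgeR p of 0.981, and 16.6% of its exon bases are shared with the antisense gene PCOLCE-AS1. PCOLCE2 had no read in knockdown 1 and stood at 2.48, 0.219 and 4.33 CPM in knockdown 2 to 4 and at 15.0, 1.31, 12.2 and 3.08 CPM in control 1 to 4. Its range of at least 301-fold sets control 1 against the level of 3 counts in knockdown 1.

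The last step is crosslinking by lysyl oxidases. LOXL3 (chromosome 2, 74532414 to 74555690, minus strand, 16 merged exons) was the other member whose groups did not overlap. It was at 1.58, 2.18, 1.29 and 1.15 CPM in knockdown 1 to 4 and at 3.91, 9.06, 2.98 and 2.29 CPM in control 1 to 4, and the gap between knockdown 2 and control 4 was small. The means were 1.55 ± 0.458 and 4.56 ± 3.07 CPM (SD, n = 4 each). The LOXL3 log2 fold change was -1.39 ± 0.560 (SE), or -0.87 without control 2 and -1.51 without the muscle or gland libraries, with an unadjusted edgeR p of 0.0352 and an adjusted edgeR p of 0.981. Reads of 19.3% of its exon bases cannot be assigned without strand, since HTRA2 and DOK1 overlap it on the opposite strand.

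LOX itself went the other way in the fit. It was at 21.2, 11.5, 91.8 and 13.7 CPM in knockdown 1 to 4 and at 3.15, 58.7, 14.3 and 28.9 CPM in control 1 to 4. Knockdown 3, the lowest library for 16 of the 31 genes, was the highest for LOX, and the fitted value of 0.83 was -0.58 without that library. LOXL2, which has a known link to invasion, was at 16.9, 6.52, 2.96 and 5.18 CPM in knockdown 1 to 4 and at 3.10, 60.4, 4.75 and 42.7 CPM in control 1 to 4. LOXL2 was high in control 2 and 4, the libraries that were also high for BMP1, ADAMTS14 and COLGALT1. LOXL1, known for elastic fibre upkeep, ran from 1.12 to 6.32 CPM in knockdown and from 4.70 to 18.3 CPM in control. LOXL4 was at 5.95, 32.0, 0.603 and 3.84 CPM in knockdown 1 to 4 and at 29.4, 2.54, 8.72 and 1.21 CPM in control 1 to 4. It was high in 1 library of each label, with a fitted value of -0.16 ± 1.22.

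**Figure D3:**
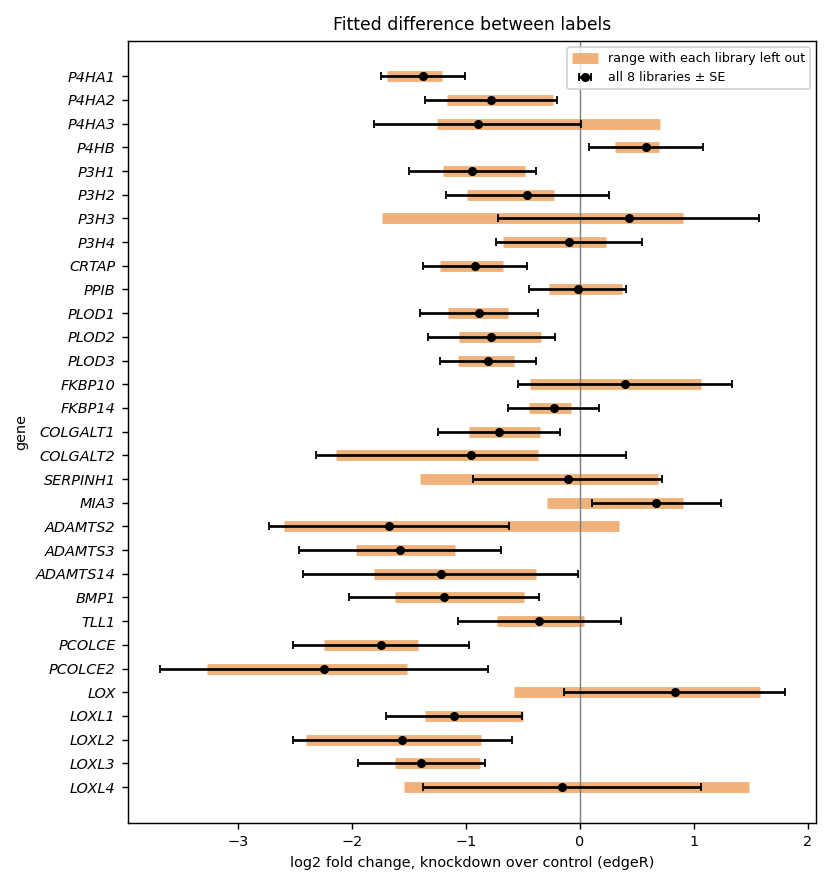
Fitted log2 fold change of each gene, knockdown over control, as a point with its SE from all 8 libraries, over the range of values when each library is left out in turn (orange). The range of P4HA1 runs from -1.70 to -1.21 and stays below 0. So do those of many other genes, such as PCOLCE (-2.25 to -1.42) and LOXL3 (-1.62 to -0.87). The ranges of ADAMTS2, LOX, LOXL4, P3H3 and others cross 0.

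The makeup of the lysyl oxidase family differed between libraries more than that of the lysyl hydroxylases. Per kilobase of exon LOX was the most abundant member in knockdown 1, 3 and 4 and control 3, with 40.1%, 92.8%, 40.5% and 31.6% of the family. LOXL4 led in knockdown 2 and control 1, with 61.7% and 70.9%, which are the 2 libraries with salivary gland markers above 1% of counts. LOXL2 led in control 4 with 49.2%, and in control 2 LOXL2 and LOX each held 36.5%. As a share of the family's counts LOX took 93.9% in knockdown 3 (Wilson 95% interval 93.1% to 94.6%) and 7.12% in control 1 (5.97% to 8.47%), intervals that cover counting error only. The part of gland RNA in the LOXL4 level was not tested.

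Among prolyl 4-hydroxylase alpha subunits P4HA1 was the most abundant per kilobase in 6 of the 8 libraries, with 50.8% to 77.4% of the family. In knockdown 3 and control 2 P4HA2 led, with 73.8% and 62.7%. P4HA3 never held more than 3.8%.

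**Figure D4:**
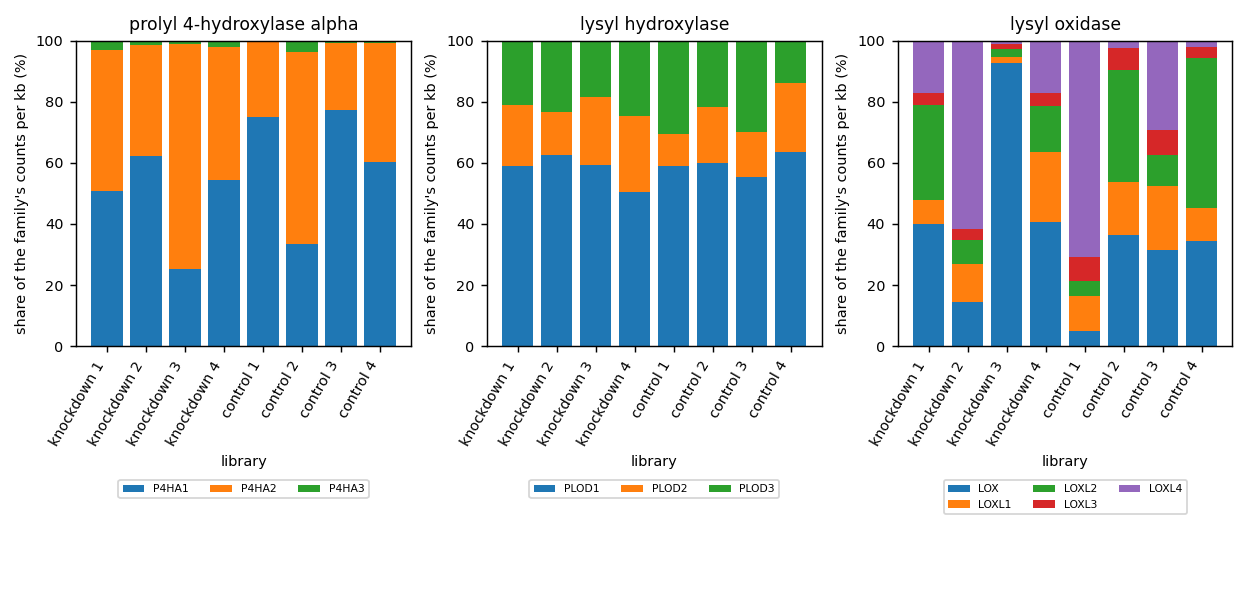
Stacked shares (percent) of each family's counts per kilobase of exon in the 8 libraries, for prolyl 4-hydroxylase alpha subunits, lysyl hydroxylases and lysyl oxidases. PLOD1 stays between 50.5% and 63.4%, whereas LOX runs from 5.0% in control 1 to 92.8% in knockdown 3.

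The enzymes were then set beside their substrates in each library. The 11 fibrillar collagen genes summed to 1041, 581, 704 and 747 CPM in knockdown 1 to 4 and to 481, 19957, 2056 and 1818 CPM in control 1 to 4. Control 2 held 26.7 times the median of the other 7. The 30 enzymes other than P4HB summed to 708, 926, 397 and 485 CPM in knockdown 1 to 4 and to 579, 1662, 731 and 1127 CPM in control 1 to 4. Enzyme reads per 100 substrate reads were 68.0, 159, 56.3 and 64.9 in knockdown 1 to 4 and 120.4, 8.33, 35.6 and 61.95 in control 1 to 4. Control 2, the collagen-rich library, had more enzyme RNA than any other. Its ratio of enzyme to substrate was the lowest, which largely follows from its high substrate sum, the divisor of the ratio. That sum includes the siRNA target COL1A1, at 8183 CPM in control 2.

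Single genes differed widely in how far control 2 stood above the other 7 libraries. The median over the 31 genes was 2.95 times the median of the other 7, where it was 1.13 over all tested genes. It exceeded 3 for 15 of the 31, against 8.04% of all tested genes. The 3 largest values belonged to steps after secretion, with 17.9 for ADAMTS2, 11.7 for LOXL2 and 11.4 for ADAMTS14. P4HA3 at 7.09 and BMP1 at 7.04 came next, then SERPINH1 at 4.78 and P4HA2 at 4.66. P4HB, MIA3, P4HA1 and CRTAP were at 1.03, 1.12, 1.17 and 1.19, close to the other libraries. COLGALT2 (0.251), PCOLCE2 (0.426) and LOXL4 (0.427) lay below them. PCOLCE2 and LOXL4 also belong to steps after secretion, so these steps held both high and low values. ADAMTS3 at 2.18 and TLL1 at 2.46, of the same steps, lay under the median of the 31. The fibroblast markers, of which COL1A2 and COL3A1 are 2, summed in control 2 to 11.4 times the median of the other 7, and their part in these values was not tested.

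**Figure D5:**
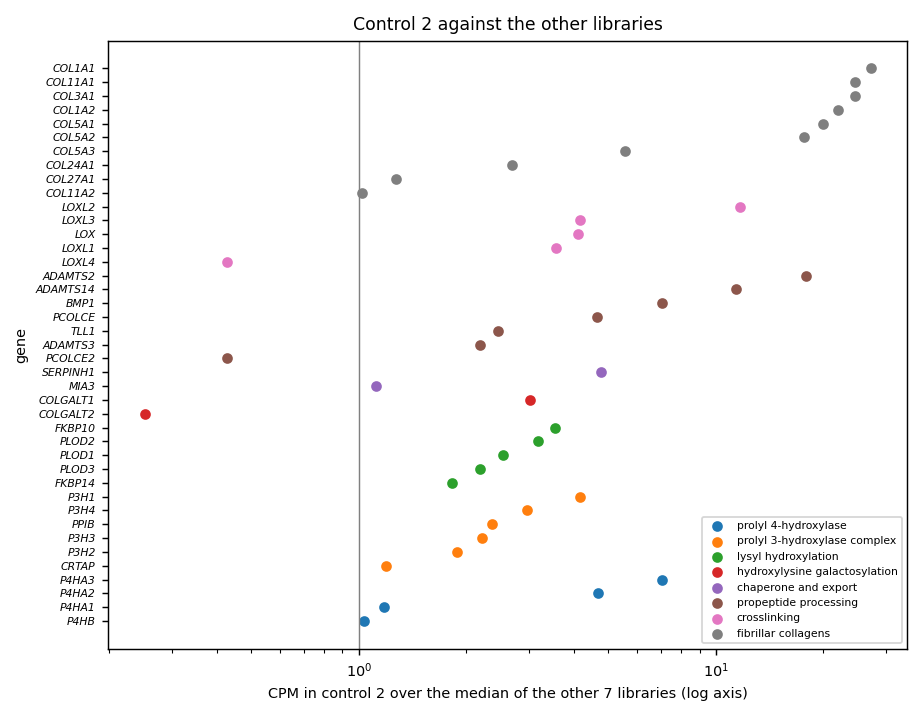
CPM in control 2 divided by the median CPM of the other 7 libraries (log axis) for the 31 genes, coloured by step, and for the fibrillar collagen genes detected in every library. COL1A1, at 27.2, lies at the far right, and the fibrillar collagens spread down to COL11A2 at 1.02. ADAMTS2 at 17.9 is the highest enzyme, just above COL5A2 at 17.6, and P4HB, MIA3, P4HA1 and CRTAP lie near 1.

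Substrate and pathway genes outside the 31 were tested in the same fit. Of 11 fibrillar collagen genes 10 passed the filter on low counts (COL2A1 did not). Of these 8 were fitted below 0 and 2 above, with a median log2 fold change of -1.95, and edgeR called none after adjustment. An unadjusted edgeR p under 0.05 was found for 5, against 4.78% of all tested genes. They were the siRNA target COL1A1, COL1A2, COL3A1, COL5A1 and COL11A1. Control 2 lay 20.0 (COL5A1) to 27.2 (COL1A1) times above the median of the other 7 for these 5. Without control 2 COL1A1 was fitted at -0.48. Of 29 other genes of collagen folding, traffic and turnover edgeR called none, with 15 fitted below 0, 14 above and a median of -0.09. The general chaperones of the reticulum were among those with small values, HSPA5 (BiP) at 0.23 and PDIA3 at 0.22 (log2). SPARC, a collagen-binding matrix protein, was fitted at -1.50 ± 0.661 (SE), and MMP14, a membrane collagenase, at -1.23 ± 0.759. The values of both are read with control 2 included, which lay 6.63 and 4.96 times above the median of the other 7.

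The 6 genes with ACGTG upstream did not share a direction in the fit. ADAMTS3, P4HA1, PLOD2 and PPIB were fitted at -1.58, -1.38, -0.78 and -0.02 (log2), and MIA3 and LOX at 0.67 and 0.83. The value of MIA3 was -0.29 without knockdown 2 and that of LOX -0.58 without knockdown 3. PPIB changed sign in 6 of the 18 alternative fits. P3H2 and SERPINH1, with ACGTG only before another listed start, were fitted at -0.46 and -0.11. The part of the motif in these values was not tested. LOX, with 4 such sites, was highest in knockdown 3, where P4HA1 and PLOD2 were at their lowest.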

How the data were processed

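The authors deposited raw counts per gene, as whole numbers, for 8 libraries. Per the submitters' processing notes they used STAR, featureCounts (Subread) and hg38; tool versions, gene annotation and strandedness: not given in the sources used here. Per the labels, the molecule is polyA RNA but the protocol removed rRNA. Columns, which say KO where titles say KD, were matched by group and replicate number. Knockdown was compared with control with edgeR 4.0.16 in R 4.3.3 (quasi-likelihood test, TMM factors, filterByExpr, group only) over 21192 genes, with Benjamini-Hochberg adjustment over all of them and a threshold of 0.05. Printed levels are CPM of column totals, and exon lengths and overlaps are from GENCODE 29. The tests were checked on simulated counts of this comparison with 200 of the 21192 genes changed. At a dispersion of 0.04, 95% of 2-fold and 100% of 4-fold changes were recovered; with the spread of the real libraries 0% were recovered at either fold. All 31 genes passed the filter and all are named. The members and the lists were chosen with earlier results of these data known. Alternatives were DESeq2 1.42.0, limma-voom (limma 3.58.1), RLE factors, totals without TMM, omission of genes over 1% of counts, other filters, a replicate block, the muscle share as a covariate, and omission of libraries. A symbol was matched to 62666 rows.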

Additional observations from a re-analysis of the deposited data

Results flagged for a closer look

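Values were examined for 1 library lying far from the other 3 of its label (a gap ratio above Dixon's 95% critical value, which chance exceeds in about 1 of 20 groups). Of 62 groups, 9 held such a value (14.5%), where 9.50% of the 42384 groups of all tested genes did. In knockdown 2 these were P3H3 at 42.5 CPM (next 5.18), MIA3 at 214.3 CPM (next 47.9) and LOXL4 at 32.0 CPM (next 5.95). In control 2 they were P4HA3 at 5.05 CPM (next 0.827), ADAMTS2 at 145.1 CPM (next 17.2) and LOXL1 at 18.3 CPM (next 6.17). ADAMTS2 was also set apart in knockdown 1, at 25.7 CPM (next 8.11), and LOX in knockdown 3, at 91.8 CPM (next 21.2). P3H2 was set apart by a low value, 1.66 CPM in control 1, where the next was 22.0 CPM.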

How the results depend on the processing

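Over 18 alternative fits no tested member was called, with adjusted p from 0.194 to 1 (DESeq2 gave none for MIA3 and ADAMTS2, and the stricter filter dropped P4HA3), and 19 of 31 kept their sign (18 lower and P4HB). DESeq2 called 146 genes of all kinds (129 higher) and no member; with each library left out edgeR called 0 to 1 genes, the 1 without knockdown 2. The members' median ran from -1.19 without the 4 libraries over 1% in muscle or gland genes to -0.48 without control 2. Totals without TMM moved the median of all genes from -0.05 to -0.21, with 64.1% below 0, and that of the members to -0.96. Signs turned for P3H3 (-0.55), PPIB (0.091), FKBP10 (-0.039), TLL1 (0.16) and LOXL4 (0.27) with limma-voom and for PPIB (0.020) with the stricter filter. With muscle share as a covariate they turned for COLGALT2 (0.76), TLL1 (0.20), LOX (-0.13) and LOXL4 (1.06), and without the muscle or gland libraries for P3H3 (-2.15), COLGALT2 (0.19), MIA3 (-0.43) and LOXL4 (1.20). Leaving out each library gave ranges across 0 for ADAMTS2 (-2.60 to 0.34), FKBP10 (-0.44 to 1.06), LOX (-0.58 to 1.58), LOXL4 (-1.54 to 1.48), MIA3 (-0.29 to 0.91), P3H3 (-1.74 to 0.91), P3H4 (-0.67 to 0.23), P4HA3 (-1.25 to 0.71), PPIB (-0.27 to 0.37), SERPINH1 (-1.40 to 0.68) and TLL1 (-0.73 to 0.037). Same-numbered libraries did not deviate together over all tested genes (correlations -0.66 to -0.37). The libraries also differed in muscle and gland RNA, so these correlations cannot exclude a pairing. Beyond the replicate number the labels state none. With the replicate block edgeR called 0 genes and 0 members, the members' median was -0.61 with 26 below 0, and P3H3 (-0.61), PPIB (0.094), FKBP10 (-0.097) and TLL1 (0.068) turned. The cause of these changes was not tested. At the spread of these libraries the test recovered no simulated 2- or 4-fold change, so this test could not detect differences of that size.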
